A study of Homo sapiens with 2 samples.

Results

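The genes of the proteasome were examined in a list of NUDT21 contacts on RNA from J-Gamma1 cells, an established human T-ALL (T-cell acute lymphoblastic leukemia) line of the Jurkat family. Members were the protein-coding genes of GENCODE 44, readthrough genes left out, whose symbol begins with PSMA, PSMB, PSMC, PSMD, PSME, PSMF or PSMG, and a peak belonged to a member when its midpoint lay in the body of that gene. This gave 50 genes, of which 23 held 57 of the 20499 peaks in the list. The rule used names and positions only, not heights, and 2 of the 50 genes, PSMC3IP and PSME3IP1, encode proteins named for binding a proteasome protein.

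The series comprised 1 library made with a NUDT21 antibody and 1 input library made without selection, both from J-Gamma1 cells that had received UV-C light of 254 nm at 400 mJ in each of 2 rounds, 15 min of lysis and 40 U of RNase I for 5 min at 37 °C. In eCLIP-seq the light links protein to the RNA it touches, and the RNA recovered with the antibody is sequenced. Only the peaks deposited for the antibody library enter the counts below. Without a replicate or a read total, the depth was unknown, no difference was tested, and every interval given is an exact Clopper-Pearson 95% interval that covers counting error only. As a check of the cell type, 4 of 12 T cell markers held a peak (CD247, CD3E, PTPRC and ZAP70), against 1 of 5 B cell markers (CD79B) and 0 of 5 myeloid markers, and shares of this size on lists this short do not set the line apart by its peaks.

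The proteasome degrades proteins that carry ubiquitin chains. Its 20S core is a barrel of alpha and beta rings, with the proteolytic sites inside the beta rings. The 19S particle caps the barrel, where its non-ATPase subunits bind and trim ubiquitin chains and its ATPases unfold and feed in the substrate. NUDT21 is the RNA-binding subunit of cleavage factor I, a complex that recognises UGUA before a cleavage site and takes part in the choice of the polyadenylation site. AAUAAA is the usual polyadenylation signal, which the cleavage machinery reads a short way before the cut.

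The sequences below were read from the hg38 reference on the strand of the gene, 5′ to 3′, with UGUA in capitals. They are shown because the 3′UTR peaks of the members did not look alike: some held UGUA beside AAUAAA and others held neither. The PSMG4 stretch lies at chr6:3267745-3267774, the PSMD12 stretch at chr17:67338994-67339023, both PSME3IP1 stretches in its highest peak, which spans the stop codon, at chr16:57154417-57154446 and chr16:57154166-57154195, and the PSMD10 stretch at the centre of a peak without a whole UGUA at chrX:108084633-108084662.
PSMG4: UGUAcaaUGUAcgUGUAaauaaauggauug
PSMD12: UGUAuuguuaacaUGUAaauaaaauuggag
PSME3IP1, coding part of the peak: cucugcugcaguaUGUAucggcauccuccc
PSME3IP1, 3′UTR part of the peak: ugccugcauccugUGUAcaacaugacauuu
PSMD10: cccucucugaaacagaacagcuccaauagc

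The next stretches are whole peaks with their midpoint in coding sequence, shown because coding peaks were the more usual kind in the 19S genes. PSMF1 is not a 19S gene. In coding sequence lay all 58 nt of the PSMD11 peak, 117 of 135 nt of the PSMD3 peak and 48 of 58 nt of the PSMF1 peak. The stretches come from PSMD11 at chr17:32479289-32479346, PSMD3 at chr17:39984368-39984502 and PSMF1 at chr20:1164429-1164486, the last of which holds no UGUA.
PSMD11: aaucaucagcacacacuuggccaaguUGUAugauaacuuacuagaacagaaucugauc
PSMD3: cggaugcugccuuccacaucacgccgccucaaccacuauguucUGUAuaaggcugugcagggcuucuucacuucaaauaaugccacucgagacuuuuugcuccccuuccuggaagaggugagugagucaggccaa
PSMF1: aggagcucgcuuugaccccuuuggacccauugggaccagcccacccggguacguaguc

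Peaks were spread unevenly over the complex. Non-ATPase genes of the 19S particle held 20 of the 57 peaks, while all 19 genes of the 20S core together held 7. Of the 50 members, 23 had any peak (46%, 31.8 to 60.7%), against 33.4% of all 19396 protein-coding genes. A peak in a UTR or coding sequence (CDS) was found in 15 members (30%, 17.9 to 44.6%), against 21.4% of all genes, and a 3′UTR peak in 9 (18%, 8.58 to 31.4%), against 14.1%. All of these backgrounds lay inside the members' intervals.

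The height of a peak is given here in steps of the authors' Score, whose values were whole multiples of 0.2277 (largest misfit 0.0059). What a step counts is not stated. A peak of 5 or more steps occurred in 17 members (34%, 21.2 to 48.8%), against 14.4% of all genes, and one in a UTR or CDS in 14 (28%, 16.2 to 42.5%), against 12.9%. Both backgrounds lay below the members' intervals, which cover counting error only, and the differences were not tested. The fold enrichment over the local background, also the authors' value, ran from 1.17 to 3.82 over the member peaks with a median of 1.99, compared with 1.61 over the 18659 peaks in protein-coding genes. Every member peak of 2 steps had a fold of 1.39, so the fold gave these no order. The deposited p-value was the same, 0.0468662, for 26 of the 57 peaks, all of them below 5 steps, so it gave these no order.

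After the authors' adjustment no member peak stood below 0.05. The FDR was 1 for 56 of the 57 peaks, and the lowest was 0.891 in PSME3IP1. A count of 0 of 57 allows a share of up to 6.27%. In the whole list 19 of 20499 peaks had an FDR under 0.05, so the deposited FDR does not match the stated q-value threshold of 0.05, and the list is not one of peaks below that threshold.

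**Figure D1:**
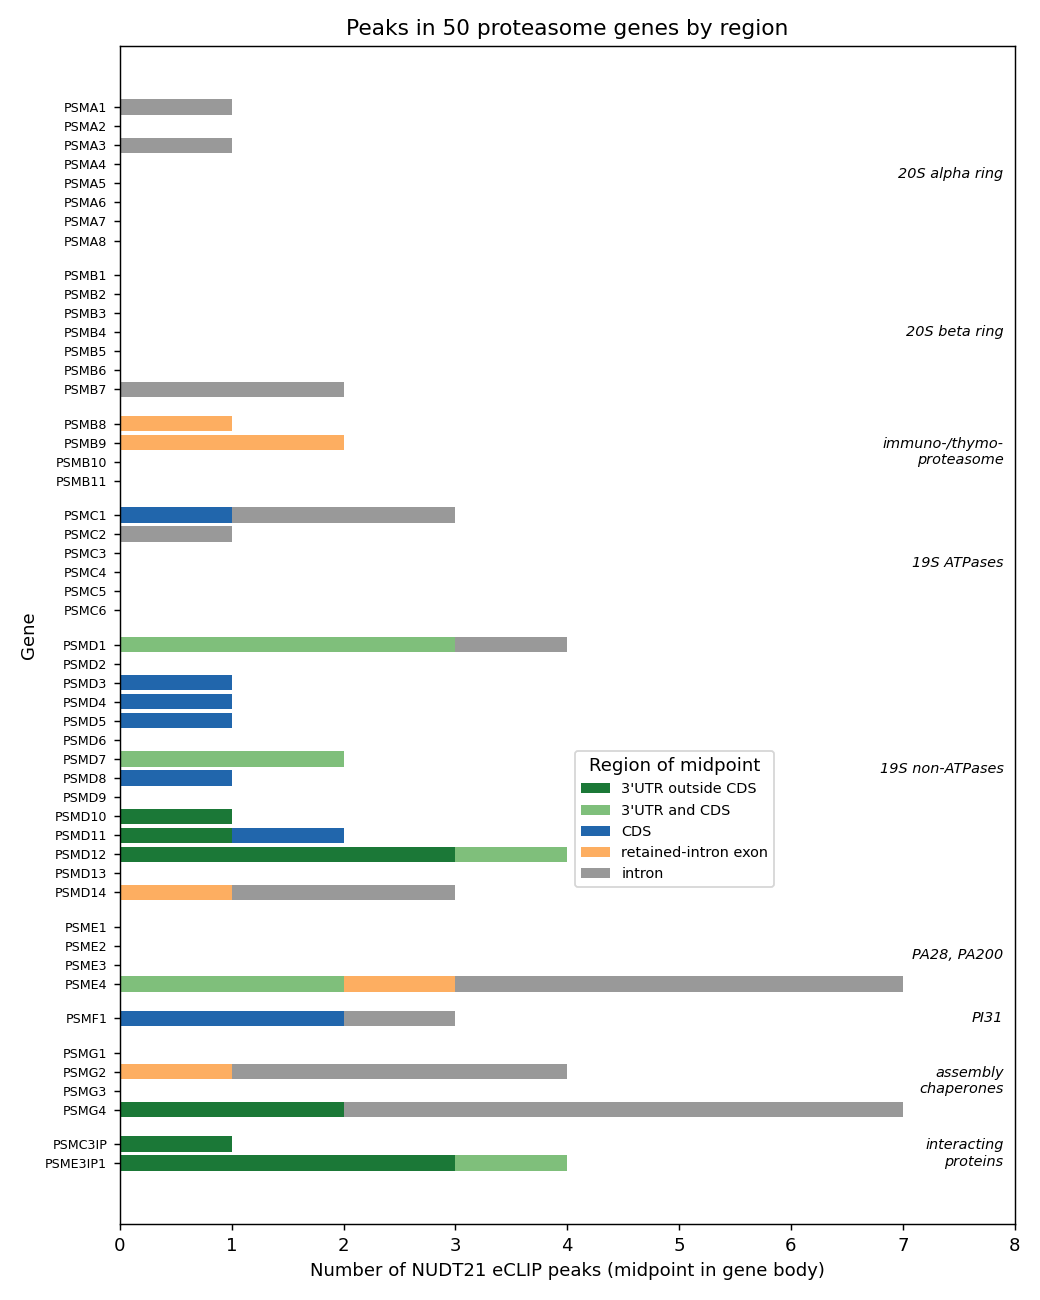
Number of NUDT21 eCLIP peaks (horizontal axis) in each of the 50 proteasome genes (vertical axis, grouped by role), coloured by the region of the peak midpoint. The 19 genes of the 20S core have 7 peaks, all in introns or exons of retained-intron transcripts, while PSME4 and PSMG4 have 7 each and 10 of the 14 19S non-ATPase genes have at least 1.

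Of the 19 genes of the 20S core, immunoproteasome and thymoproteasome forms included, 5 held a peak and 0 held one whose midpoint lay in a UTR or CDS. This count rests on midpoints, since 112 nt of the PSMB8 peak and 90 nt of a PSMB9 peak were CDS. A count of 0 of 19 allows a share of up to 17.6%, against 21.4% of all protein-coding genes. No alternative setting was scored for the core or the 19S particle. In the 19S particle, 12 of 20 genes held a peak (33.4% of all genes) and 10 held one in a UTR or CDS (50%, 27.2 to 72.8%). These 20 were taken by symbol and are not all subunits of the finished particle. They include the base chaperones PSMD5 and PSMD10, which each held a UTR or CDS peak. The difference between core and cap was not tested, since genes are not replicates of a condition.

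Transcript length moved with this split. The median spliced length was 1023 nt in the core and 1951 nt in the 19S particle, with median 3′UTRs of 233 and 447 nt. Counted by midpoint, there were 0 UTR or CDS peaks per 10 kb of spliced sequence in the core and 3.61 in the 19S particle. The values were 2.62 over all members and 1.48 over all protein-coding genes. The part of transcript length, and of the amount of each RNA, in the split was not tested, and the list cannot tell a gene without contacts from a gene with little RNA.

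**Figure D2:**
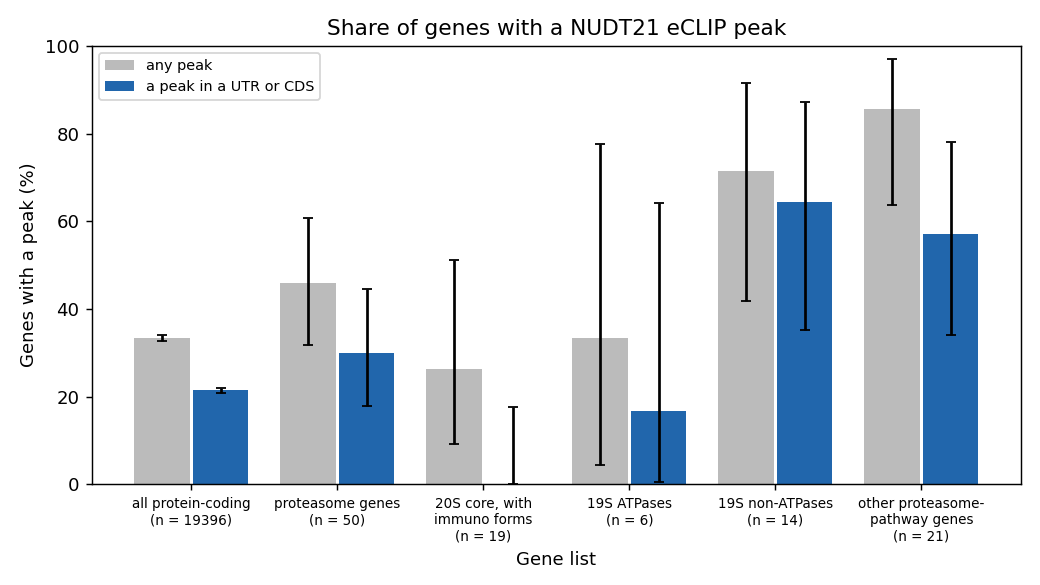
Percentage of genes (vertical axis) with any peak (grey) or a peak in a UTR or CDS (blue) in each gene list (horizontal axis), with exact 95% intervals as bars. By midpoint, the core has 0 of 19 genes with a UTR or CDS peak and the 19S non-ATPases 9 of 14. The intervals are wide because the lists are short.

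The alpha ring opens and shuts the entry to the core. PSMA1 and PSMA3 had 1 peak each, and PSMA2, PSMA4, PSMA5, PSMA6, PSMA7 and PSMA8 had none. The PSMA1 peak (chr11:14603312-14603372) had 1 step and lay in no exon, 82956 nt upstream of the start of the canonical transcript. The PSMA3 peak (chr14:58266708-58266770) reached 7 steps and a fold enrichment of 2.34, the highest in the core, and also lay in an exon of the antisense RNA PSMA3-AS1. Without strand in the list it cannot be told which RNA gave it.

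Some core genes with a long annotated 3′UTR and many copies of UGUA held no peak. PSMA4 has a 3′UTR of 3473 nt with 17 UGUA, PSMA5 one of 2971 nt with 19, and PSMB2, a catalytically inactive beta subunit, one of 3726 nt with 16. In these 3 genes the list held nothing, in the 3′UTR or elsewhere in the body. Most genes are like this, since 33.4% of all protein-coding genes held any peak and 11.2% a 3′UTR peak outside CDS. Whether the cells use these long 3′UTRs is not known from the list.

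In the beta ring, which carries the proteolytic subunits, 1 of 7 genes held a peak. That gene was PSMB7, which encodes the trypsin-like subunit, with peaks of 1 step (chr9:124360865-124361318) and 2 steps (chr9:124406764-124406991), both in introns. PSMB1, PSMB2, PSMB3, PSMB4, PSMB5 and PSMB6 had none.

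The interferon-inducible subunits PSMB8 and PSMB9 replace standard catalytic subunits in the immunoproteasome, and their genes lie side by side on chromosome 6. PSMB8 had 1 peak of 4 steps (chr6:32842638-32842938, fold enrichment 1.82). PSMB9 had 2 peaks of 2 steps (chr6:32857410-32857618 and chr6:32857886-32858094), with starts 476 nt apart. All 3 midpoints lay in exons of retained-intron transcripts, in sequence that is intron in the canonical transcript, though 112 nt of the PSMB8 peak and 90 nt of the second PSMB9 peak reached into CDS. PSMB10, the remaining immunoproteasome subunit, and PSMB11, the subunit of the thymus, had no peak.

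**Figure D3:**
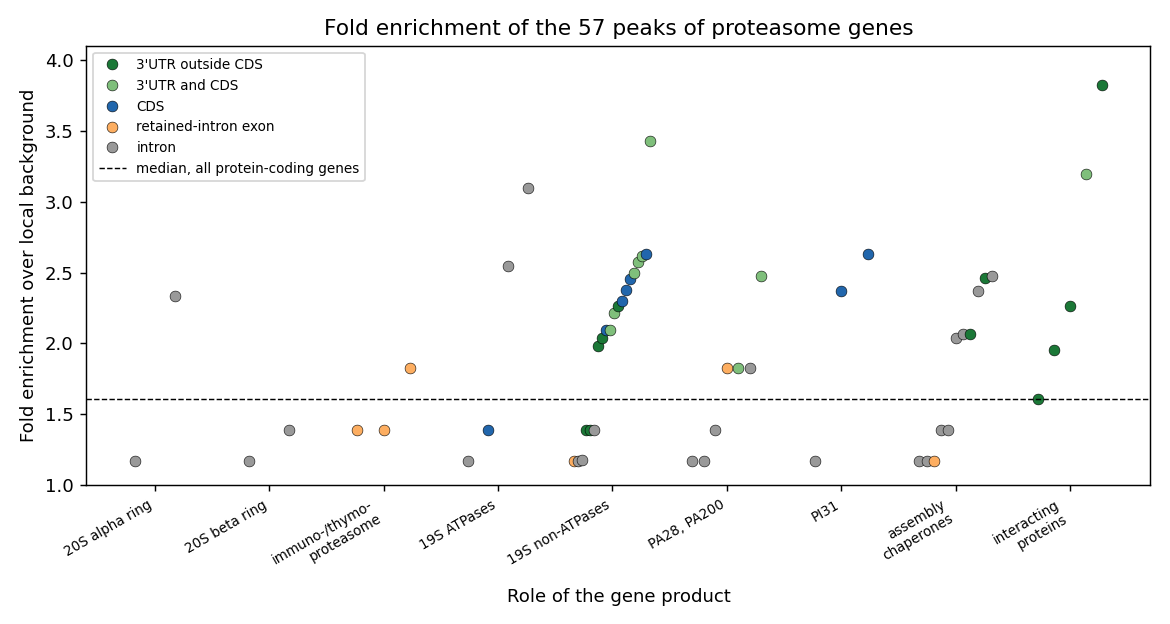
Fold enrichment over local background (vertical axis) of each of the 57 member peaks, grouped by the role of the gene product (horizontal axis) and coloured by region, with the median of all protein-coding genes (1.61) as a dashed line. The 5 highest points belong to PSME3IP1, PSMD7, PSMC1 and PSMD11, and 6 of the 7 core peaks lie below a fold of 2.

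Among the ATPases, which form the ring that unfolds the substrate, PSMC1 and PSMC2 held peaks and PSMC3, PSMC4, PSMC5 and PSMC6 did not. PSMC1 had a peak of 10 steps (chr14:90258880-90259245) with a fold enrichment of 3.10 and a p-value of 3.05e-05. Its midpoint was in intron 1, 98 nt from the nearest exon, and 54 nt of the peak were exonic. A PSMC1 peak of 2 steps (chr14:90269340-90269511) was the only one of the ATPase genes with its midpoint in CDS, where 62.9% of its 30-mers occur elsewhere in the genome and the NRDE2 3′UTR lies on the opposite strand. The third PSMC1 peak (chr14:90257122-90257426) had 1 step, in an intron.

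The PSMC2 peak (chr7:103344526-103344584) had 10 steps and a fold enrichment of 2.54. It lay 3088 nt upstream of the start of the canonical transcript, in an intron of longer transcripts and in an intron of DNAJC2 on the opposite strand. The tallest peaks of both ATPase genes thus had their midpoints in introns.

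The non-ATPase genes held 16 of the 28 member peaks in UTRs or CDS, the highest count of any role. Per 10 kb of spliced sequence they had 4.83 such peaks, below the 11.97 of both genes of interacting proteins. UTR or CDS peaks occurred in 9 of 14 (64.3%, 35.1 to 87.2%), against 21.4% of all protein-coding genes. In each of those 9 at least 1 such peak had 5 or more steps, which was so in 12.9% of all genes. The differences from all genes were not tested. These 9 genes were PSMD1, PSMD3, PSMD4, PSMD5, PSMD7, PSMD8, PSMD10, PSMD11 and PSMD12. PSMD14 held only peaks of 1 step outside coding and 3′UTR sequence, and PSMD2, PSMD6, PSMD9 and PSMD13 had none.

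PSMD7, the partner of the deubiquitinase PSMD14 in the lid, had the tallest peaks of all members. They reached 14 steps with a fold enrichment of 3.43 in exon 6 (chr16:74304344-74304402) and 15 steps with a fold of 2.50 in the last exon (chr16:74305529-74305631). The midpoints lay at codons 170 and 274 of 324. Both stretches also count as 3′UTR in a transcript annotated for nonsense-mediated decay, in which translation stops earlier. PSMD14 itself, the enzyme that removes ubiquitin chains, had 3 peaks of 1 step each at chr2:161384762-161384976, chr2:161390511-161390638 and chr2:161409354-161409604.

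PSMD1, a large scaffold subunit of the base, had peaks of 7, 8 and 8 steps at exons 7, 8 and 20 of 25. The first lay at chr2:231072383-231072444 (fold enrichment 2.09), the next at chr2:231075542-231075589 (2.62) and the last at chr2:231161484-231161531 (2.57). Their midpoints were 2, 6 and 2 nt from an exon edge, and 33 of 62, 30 of 48 and 26 of 48 nt lay in the exon. The remaining PSMD1 peak (chr2:231165229-231165475) had 2 steps in an intron.

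PSMD11 and PSMD12, which encode lid subunits, were the 19S genes with peaks both in coding sequence and in the 3′UTR outside it. In PSMD11 the coding peak printed above had 9 steps and a fold enrichment of 2.63 at codon 327 of 422, and the 3′UTR peak (chr17:32481118-32481165) had 6 steps and a fold of 1.99. In PSMD12 a peak of 6 steps (chr17:67340865-67340912, fold 2.22) lay at codon 442 of 456, just before the stop codon. Its 3′UTR then held peaks of 5 steps (chr17:67339445-67339721, fold 2.04), 2 steps (chr17:67338984-67339396) and 2 steps (chr17:67338869-67338920). In the PSMD12 3′UTR of 2927 nt, no peak began before nt 1122 after the stop codon and none reached past nt 1974.

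PSMD3, PSMD4, PSMD5 and PSMD8 had 1 coding peak each. The PSMD3 peak printed above had 10 steps (fold enrichment 2.45, codon 121 of 534). PSMD4, a ubiquitin receptor, had 7 steps in exon 2 (chr1:151262202-151262294, fold 2.30, codon 38 of 377), with 43.8% of 30-mers also found at a second place in the genome. PSMD5, a chaperone of base assembly, had 7 steps in its last exon (chr9:120818018-120818102, fold 2.09, codon 454 of 504). The PSMD8 peak of 8 steps (chr19:38382213-38382263, fold 2.38) was coding in a transcript other than the canonical one. PSMD10, a base chaperone known as gankyrin, had 1 peak of 7 steps (chrX:108084622-108084673, fold 2.27), in its 3′UTR 327 nt after the stop codon.

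**Figure D4:**
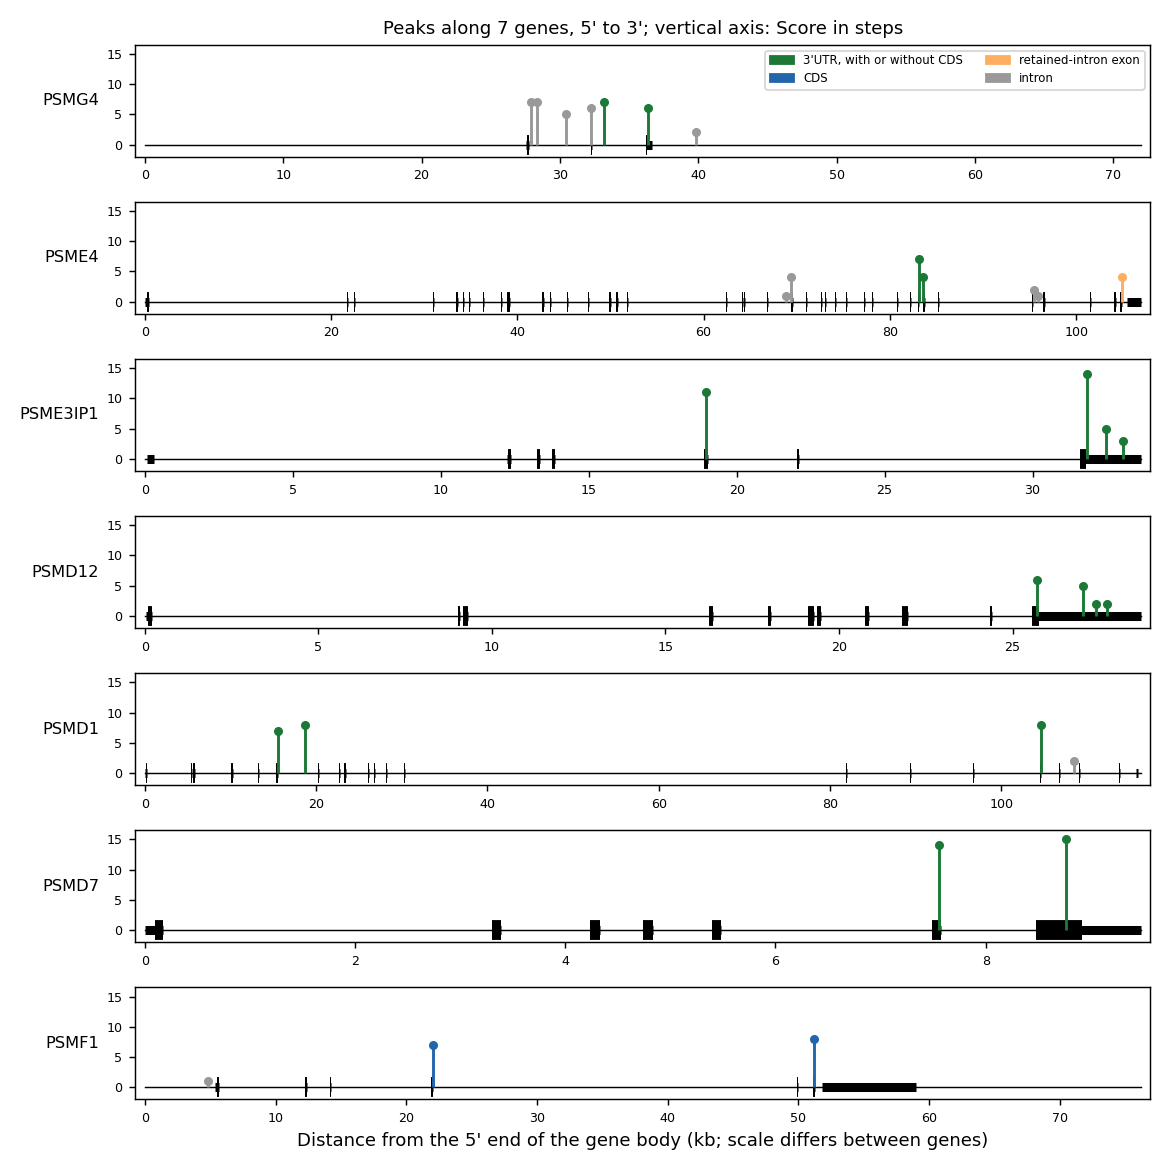
Peak height in steps of Score (vertical axis) along 7 genes from the 5′ end of the gene body (horizontal axis, kb, each gene on its own scale), with exons of the canonical transcript as thin boxes and CDS as tall boxes, and stems coloured by region. PSMD7 has stems of 14 and 15 steps in its last exons, PSMD12 and PSME3IP1 carry stems along the 3′UTR, and the PSMG4 stems sit within a few kb of its canonical transcript although the gene body spans 72.0 kb.

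Proteasome activators open the core without the 19S particle. Of this group, PSME1, PSME2 and PSME3, the PA28 subunits, had no peak and PSME4, which encodes PA200, had 7. The tallest PSME4 peak, of 7 steps (chr2:53887847-53887907, fold enrichment 2.48), and a peak of 4 steps (chr2:53887371-53887431, fold 1.82) lay in neighbouring coding exons at codons 1501 and 1529 of 1843, with starts 476 nt apart. Another peak of 4 steps (chr2:53865903-53866205) lay in a retained-intron exon, and the intronic peaks had 4 steps (chr2:53901462-53901833), 1 step (chr2:53901938-53902309), 2 steps (chr2:53875295-53875701) and 1 step (chr2:53875027-53875225). PSME4 also has the longest coding sequence of the members, at 5532 nt.

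PSMF1 encodes PI31, a binding partner of the core first described as an inhibitor. It had coding peaks of 7 steps (chr20:1135263-1135310, fold enrichment 2.37) and 8 steps (fold 2.63, printed above) at codons 177 and 249 of 271. A PSMF1 peak of 1 step (chr20:1117988-1118124) lay in no exon, 546 nt upstream of the start of the canonical transcript. No peak had its midpoint in the PSMF1 3′UTR, which is the longest of the members at 7166 nt and holds 26 UGUA.

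Assembly chaperones guide the building of the alpha ring. PSMG1 and PSMG3 had no peak, PSMG2 had 4 of 1 or 2 steps outside mature coding transcripts, and PSMG4 had 7. The PSMG2 peaks lay at chr18:12670485-12670812, chr18:12670961-12671288, chr18:12703207-12703392 and chr18:12725064-12725251. The first pair lay 32394 and 31918 nt upstream of the start of the canonical transcript, and also in CEP76, on the opposite strand.

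PSMG4 was the member with most peaks of 5 or more steps, at 6. In intron 1 of the canonical transcript there were peaks of 7 steps (chr6:3259161-3259504, fold enrichment 2.37), 7 steps (chr6:3259637-3259921, fold 2.48), 5 steps (chr6:3261586-3262082, fold 2.04) and 6 steps (chr6:3263594-3263641, fold 2.07). The first of these had 36 nt in CDS, and its start lay 476 nt from that of the second, so the pair is not taken as independent contacts. A peak of 7 steps (chr6:3264570-3264674, fold 2.46) lay in the 3′UTR of a shorter transcript. The peak of 6 steps at chr6:3267698-3267783 (fold 2.07) began in the final codons and covered the start of the canonical 3′UTR. The last PSMG4 peak (chr6:3271184-3271324) had 2 steps and lay in the 3′UTR of SLC22A23, a gene of the opposite strand.

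PSMG4 supplied most of the tall intronic peaks of the members. Of the 30 member peaks with 5 or more steps, 7 were intronic (23.3%, 9.93 to 42.3%), against 8.15% of such peaks in all protein-coding genes. The PSMG4 peaks of intron 1 made up 4 of the 7, with the pair of 476 nt spacing among them. The others were in PSMA3, PSMC1 and PSMC2, described above. The peak nearest the PSMG4 start had a GC content of 74.7%, the highest of the members, whose median was 42.5%.

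By fold enrichment the highest peak of the members belonged to PSME3IP1, whose product binds the nuclear activator PSME3. It had 14 steps (chr16:57154092-57154470), a fold enrichment of 3.82 and a p-value of 3.28e-06, and ranked 179 of 20499 by fold. The peak spanned the stop codon, with 181 nt also in CDS, and its midpoint was 2 nt from an annotated transcript end. Further along the 3′UTR of 1824 nt, PSME3IP1 had peaks of 5 steps (chr16:57153610-57153674, fold 1.95) and 3 steps (chr16:57152876-57153258, fold 1.61). A coding peak of 11 steps (chr16:57167143-57167190, fold 3.20) lay at codon 137 of 254. PSMC3IP, whose product acts in meiotic recombination, had 1 peak of 7 steps (chr17:42572792-42572839, fold 2.27), in its 3′UTR and equally in that of MLX on the opposite strand. Without both genes, 21 of 48 members held 52 peaks.

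By region, the 57 peaks divided into 20 in a 3′UTR (35.1%, 22.9 to 48.9%), 8 in CDS alone (14%, 6.26 to 25.8%), 6 in noncoding exons (10.5%, 3.96 to 21.5%), 23 in introns (40.4%, 27.6 to 54.2%) and 0 in a 5′UTR, a count that allows up to 6.27%. In all protein-coding genes these shares were 30%, 23.3%, 3.75%, 39.6% and 3.25%. The 3′UTR share depended on how a base that is both 3′UTR and CDS was counted. Of the 20 peaks, 11 had their midpoint outside all CDS (19.3% of peaks, against 20.4% in all genes). Such peaks are called outside CDS here, though 181 nt of the PSME3IP1 peak of 14 steps and 15 nt of a PSMG4 peak were CDS. The other 9 were CDS in a coding transcript and 3′UTR only in transcripts for nonsense-mediated decay. Counted as CDS, these 9 bring the coding peaks to 17 (29.8%, 18.4 to 43.4%), against 33.6% in all genes.

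The position of coding peaks in their exons was also compared. Of 16 with a midpoint in canonical CDS, 7 lay wholly inside the exon (43.8%, 19.8 to 70.1%), 8 ran past its 3′ end (50%, 24.7 to 75.3%) and 1 past its 5′ end. In all protein-coding genes, 63.1% of 6216 such peaks lay inside the exon and 29.8% ran past its end, both inside the members' intervals. The exons concerned were shorter in the members, with a median of 165 nt against 214 nt. The part of exon length was not tested.

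UGUA was searched on both strands of each peak. The letters cannot overlap a second copy of themselves, and AAUAAA can share an A with UGUA. UGUA was present on the strand of the gene in 26 of the 57 member peaks (45.6%, 32.4 to 59.3%) and on the opposite strand in 23 (40.4%), against 44.4% and 40.7% in all protein-coding genes. Of the 17 coding peaks, 4 held it. In the 11 peaks with their midpoint in a 3′UTR outside CDS it was found in 4 (36.4%, 10.9 to 69.2%) on the gene strand. On the opposite strand it was found in 5, against 49.7% and 38.9% of 3812 such peaks in all genes for the gene and opposite strands. At this number of peaks no preference for UGUA was detectable in the members.

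The 3′UTRs of the members hold UGUA at the usual density but are short. Their median length was 372 nt, against 1080 nt in all protein-coding genes, with 5.32 and 5.38 UGUA per kb. At least 1 UGUA was present in 39 of the 50 (78%, 64.0 to 88.5%), against 84.5%, and in the last 100 nt in 24 (48%, 33.7 to 62.6%), against 52.7%. A 3′UTR peak outside CDS was found in 6 genes (12%, 4.53 to 24.3%), against 11.2% of all genes, namely PSMC3IP, PSMD10, PSMD11, PSMD12, PSME3IP1 and PSMG4. In their canonical 3′UTRs, peaks covered 17.7% of 9080 nt and 10 of 58 UGUA.

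Those 10 were divided among PSMG4 with 4 of 6, PSMD12 with 3 of 15 and PSME3IP1 with 3 of 8. PSMD10, PSMD11 and PSMC3IP had 0 of 10, 0 of 15 and 0 of 4 wholly in their peaks. In PSMD10 the edge of the peak, at nt 301 of the 3′UTR, cuts a UGUA at nt 300 to 303, which was not counted. In PSMD11 the peak ends at nt 413 and the next UGUA begins at nt 429. Peaks thus held about the share of UGUA (17.2%) that their share of the 3′UTRs gives.

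**Figure D5:**
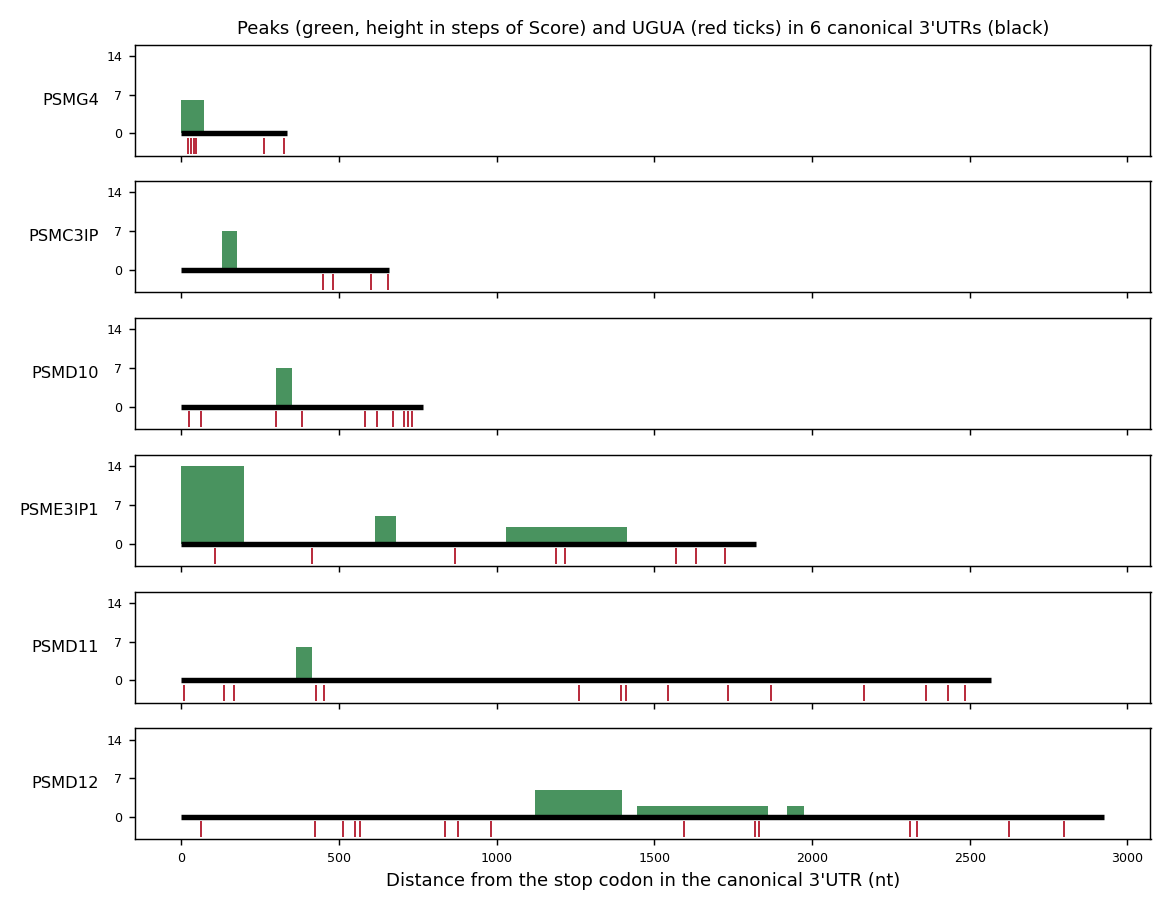
Peaks (green boxes, height in steps of Score) and UGUA (red ticks) along the canonical 3′UTR (black line, distance from the stop codon in nt) of the 6 members with a 3′UTR peak outside CDS. The PSMG4 peak covers 4 of 6 ticks, whereas the peaks of PSMC3IP, PSMD10 and PSMD11 cover none.

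UGUA shortly before AAUAAA and an annotated transcript end, the textbook order at a polyadenylation site, was found in PSMG4, and this peak was singled out after its letters had been seen. Its peak of 86 nt held 4 UGUA followed directly by AAUAAA, and the next annotated transcript end lay 44, 34, 27 and 21 nt after the UGUA copies and 17 nt after the AAUAAA. Among 465 peaks of 76 to 96 nt in 3′UTRs outside CDS of all genes, 40.6% held UGUA, 5 (1.08%, at most 2.49% by the interval) held at least 4 copies, and 10 (2.15%, 1.04 to 3.92%) held UGUA with AAUAAA within 50 nt after it. On the opposite strand of the same peaks the last 2 counts were 2 and 2. These matches describe the letters in the window and do not show a site in use.

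In PSMD12 the peak of 413 nt held 3 UGUA, the last of them adjoining AAUAAA, but it had 2 steps, and its UGUA copies lay 1094 nt or more before the next annotated end. Of its 30-mers 53.1% were repeated in the genome, up to 18064 times. Of 298 peaks of 363 to 463 nt, 25 (8.39%) held UGUA with AAUAAA after it on the gene strand and 35 (11.7%) on the opposite strand. The PSME3IP1 peak of 14 steps had UGUA 37 nt before an annotated end and no AAUAAA.

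A spacing of 476 nt, the most frequent distance between starts of peaks up to 1000 nt apart in the list (2011 pairs), also touched member peaks. In PSMB9, PSME4 (at both positions given above), PSMG2 and PSMG4, pairs of peaks had this spacing, 10 of the 57 peaks in all (17.5%, 8.75 to 29.9%), against 19.6% in all protein-coding genes. The origin of this spacing was not tested, and the peaks of a pair are not taken as independent contacts.

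Copies of proteasome genes elsewhere in the genome did not take up peaks. None of the 44 pseudogenes whose symbol derives from a member held a peak. Of 57 member peaks, 45 had no 30-mer that occurs a second time in the genome, 12 had at least 1, and 2 had more than 50%, those of PSMC1 and PSMD12 named above. Of 7 noncoding RNA genes named for a member, 2 held peaks, PSMA3-AS1 with 2 (1 of them the PSMA3 peak) and PSMD14-DT with 4.

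Other gene groups give a scale for these counts. Of 21 further genes of the ubiquitin-proteasome pathway, 18 held a peak and 12 a UTR or CDS peak, with a median spliced length of 4114 nt against 1529 nt in the members. Among the genes of UBE2 ubiquitin-conjugating enzymes the counts were 21 and 14 of 36, and in the CCT chaperonin, another cytosolic complex of many subunits, 2 and 2 of 8. The genes of cytosolic ribosomal proteins, with a median spliced length of 848 nt, had a peak in 14 of 79 and a UTR or CDS peak in 9 (11.4%, 5.34 to 20.5%). The interval of the ribosomal genes overlapped that of the core genes (0 to 17.6%), and differences between these groups were not tested.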

How the data were processed

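Per the labels, J-Gamma1 cells gave 1 NUDT21 antibody and 1 input eCLIP library. The authors trimmed reads with fastp, removed duplicates by unique molecular identifier and ribosomal RNA reads, mapped to hg38 and called peaks with MACS2 (local windows of 1000 and 10000 nt, stated q-value threshold of 0.05). The aligner is not given in the sources used here, nor whether MACS2 was given the input as its control. The deposited list held, per peak, a fold enrichment (a ratio of pileup to local background), a p-value, an FDR (q-value, which for most peaks is above that stated threshold) and a Score, a signal in whole steps of unstated unit. The ratio is not a plain one, and its formula is not stated. At the shared p-value of 0.0468662, member peaks of 1, 2, 3 and 4 steps had folds of 1.17, 1.39, 1.61 and 1.82. The fold thus rose less than in proportion to height. It does not give how many times a peak exceeded its background. The list gave no strand, so a peak belongs to a gene by position alone, and no depth.

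Midpoints were assigned with GENCODE 44, all transcripts, a 3′UTR taking precedence over a 5′UTR, that over CDS, then noncoding exons and introns. Exon edges, codons and 3′UTR lengths were those of the Ensembl canonical transcript. The lookup of regions was checked on simulated midpoints drawn from the same annotation. The region put in was found in its own transcript for 1561 of 1561. This checks the code only, and the precedence between regions was not part of it. Sequences came from hg38, with 30-mers counted on both strands. No test was run, since there was 1 library. The members, lists and settings were chosen with earlier results of these data known. Full values were given to members with 1 of the 10 highest peaks by fold, the 5 with most peaks and those with a 3′UTR peak outside CDS. Tools were pysam 0.24.0 for sequences, scipy 1.17.1 for intervals, matplotlib 3.10.9 for figures, pandas 2.3.3 and numpy 2.4.6, under Python 3.11.15. Alternatives were peaks of 5 or more steps, a fold of at least 2, an FDR under 0.05, merging within 100 nt, any overlap with the gene body, CDS in precedence, 1 transcript per gene, and the omission of interacting proteins or of peaks in another gene, and, added after seeing the data, the omission of nonsense-mediated decay transcripts and the alternatives for genes with a UTR or CDS peak.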

Additional observations from a re-analysis of the deposited data

How the results depend on the processing

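With an FDR under 0.05 no peak of a proteasome gene was left, so that 57 peaks, 23 genes with a peak and 9 genes with a 3′UTR peak each became 0 and no share or median could be given. The 57 peaks became 30 with 5 or more steps and 28 with a fold enrichment of at least 2. The median fold then rose from 1.99 to 2.37 and 2.42, the 3′UTR share from 35.1% to 53.3% and 50%, and the intron share fell from 40.4% to 23.3% and 25%. With CDS in precedence the 3′UTR share was 19.3% and the CDS share 29.8% in place of 14%, and leaving out nonsense-mediated decay transcripts also gave a 3′UTR share of 19.3%. With 1 canonical transcript per gene the shares were 17.5% for 3′UTRs, 28.1% for CDS and 54.4% for introns. Of 72 alternative values, 55 stayed within their limits and 17, all given here, did not. The number of genes with a UTR or CDS peak, 15, stayed under the alternatives scored for it, which were added after seeing the data. It was 14 with 5 or more steps, 14 with 1 canonical transcript and 15 without nonsense-mediated decay transcripts. The FDR filter was not scored for this number, though it leaves no member peak at all. The depth is unknown and there is 1 library, so low peaks, and genes without a peak, have no measure of reproducibility. No paired analysis was possible because the counts rest on 1 antibody library.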
